A study of Homo sapiens with 18 samples.

Results

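Raji cells with low GFP were compared with Raji cells with high GFP at 48 h. The comparison uses 6 of the 18 RNA sequencing libraries of the series, 3 labelled GFP low and 3 labelled GFP high, chosen by the GFP level and the time in the labels, and it is read across all genes. Raji is an established human Burkitt lymphoma line, a tumour of germinal centre B cells. Every sample carries the genotype label Smarca4+/+, and the series describes an auxin-inducible degron for the SMARCA4 protein. No agent or dose is named for either group, so the groups differ, as far as the labels say, in GFP level alone. The sources used here state neither what GFP reports, nor how the cells were sorted by it, nor when the clock started. In 1 library set the column names combine GFP with BRG1, another name of SMARCA4. The same groups at 24 and 72 h, 12 libraries, serve for comparison. Separate cultures are not stated for the replicates of a group, so p-values measure the spread between these libraries only, which may be technical.

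SMARCA4 is the ATPase of the BAF complexes, which use ATP to slide or evict nucleosomes and so make promoters and enhancers reachable for transcription factors. In a degron system a tag on the protein is recognised, in the presence of auxin, by a ubiquitin ligase that sends it to the proteasome. Germinal centre B cells divide and mutate their antibody genes in the dark zone, and in the light zone they are selected by antigen and by T cell help that arrives through CD40. From there they leave as plasma cells or memory B cells or return to the dark zone, and the repressor BCL6 holds back the genes of exit.

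The 3 GFP low libraries held 40645310, 36016913 and 51690031 counts in genes, and the 3 GFP high libraries 28660713, 31468774 and 48226220. Here and below, 3 values for a group are those of the unnumbered library set, set 1 and set 2, in that order, as the column names give the sets; each set holds 1 library of every group. Levels are CPM, counts scaled to library totals of 1e6 and by TMM factors, and differences are log2 fold changes of GFP low over GFP high, followed by ± SE of the fit. A gene is called when its Benjamini-Hochberg adjusted p in edgeR's quasi-likelihood test, over all 16474 genes tested, is under 0.05. On the first principal component of the 6 libraries, which held 52.5% of the variance, GFP low libraries lay at 12.2 to 13.8 and GFP high libraries at -13.9 to -11.1. The second, with 22.1%, set both libraries of set 1 apart from the other 4.

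At 48 h 1749 genes were higher in GFP low cells (10.6% of genes tested) and 2177 were lower (13.2%). In 3820 of these 3926 genes the 3 and 3 libraries did not overlap (23.2% of genes tested). Most differences were small: the median size among called genes was 0.22 on the log2 scale. Only 192 higher and 75 lower genes passed a 2-fold difference, and 420 and 206 passed 1.5-fold. The larger differences lay mostly upward, but of the 2-fold genes 133 higher and 50 lower averaged under 1 CPM. Among genes averaging 100 CPM or more, 4 higher and 5 lower passed 1.5-fold. The excess of lower calls over all genes depended on scaling and filter: there were 1859 higher and 2005 lower with RLE factors, 1918 and 1936 with library totals without mitochondrial genes, and 1773 and 1757 with no filter on low counts. Of the 2405 genes averaging 100 CPM or more, 273 were higher and 723 lower, while of the 3662 genes between 1 and 10 CPM, 420 were higher and 270 lower. Long noncoding RNAs were higher in 190 and lower in 118 of 2582 cases. Counts of the gene lists below are to be read beside the 10.6% higher and 13.2% lower over all genes. For lists of abundant genes, the share of lower calls at 100 CPM or more is the nearer measure. With bulk RNA, fewer cells of a kind and less RNA per cell cannot be told apart.

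SMARCA4 mRNA had 473, 472 and 501 CPM in GFP low cells, against 440.0, 440.2 and 457 CPM in GFP high cells. All GFP low libraries lay above all GFP high libraries, by a log2 fold change of 0.11 ± 0.03, adjusted p = 0.00748. An mRNA level is no check of the removal of a protein. SMARCA2, the other ATPase of these complexes, showed a similar step (0.12 ± 0.03, adjusted p = 0.00876). Of the 28 BAF subunit genes tested, 6 were higher and 3 lower (7 and 4 with the library set as a block). Over all genes tested, 10.6% were higher and 13.2% lower. Those higher include the DNA-binding subunit ARID2 (0.19 ± 0.03) and the adaptor BICRAL (0.19 ± 0.03). SMARCD3 was also higher (1.36 ± 0.38, adjusted p = 0.0107) at under 1 CPM, and this call was lost without the GFP high library of set 1 (1.21, adjusted p = 0.0504).

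NFATC2 encodes a transcription factor that enters the nucleus of lymphocytes when calcium activates calcineurin. It differed most among genes at 1 CPM or above (ENSG00000101096.20, chromosome 20, 51386957 to 51562831, minus strand in hg38). It had 3.51, 2.94 and 3.15 CPM in GFP low cells, against 0.6005, 0.383 and 0.503 CPM in GFP high cells, a log2 fold change of 2.69 ± 0.16, adjusted p = 6.17e-11. Every GFP low library stood several times above every GFP high one. The rest of the calcineurin and NFAT list did not follow it: of 14 genes tested, 3 were higher and 3 lower (10.6% and 13.2% over all genes tested). The kin factor NFATC3 was lower (-0.21 ± 0.03), and the calcineurin inhibitor RCAN3 was higher (0.19 ± 0.04).

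THEMIS2, an adaptor that lowers the threshold of B cell receptor activation in mice, had 19.6, 19.03 and 20.5 CPM in GFP low cells, against 4.95, 5.99 and 6.65 CPM in GFP high cells (1.73 ± 0.08, adjusted p = 1.42e-12). The groups were far apart, and among the 15 largest increases it was one of only 3 genes, with RAB27B and IGHA1, that passed 10 CPM in GFP low cells. RAB27B, a small GTPase of vesicle secretion, had 37.03, 36.7 and 38.1 CPM in GFP low cells, against 14.6, 13.9 and 14.5 CPM in GFP high cells (1.38 ± 0.05, adjusted p = 3.92e-15). Of 13 genes of that vesicle release group 4 were higher and 2 lower. CPLX1, which binds the SNARE complexes of fusing vesicles, was higher (1.84 ± 0.21), while the SNARE protein VAMP8 was lower (-0.63 ± 0.03).

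The other large increases touched several systems. DAB2IP, a Ras GTPase-activating protein, had 2.65, 2.62 and 3.09 CPM in GFP low cells, against 0.459, 0.542 and 0.692 CPM in GFP high cells (2.26 ± 0.19). SAMD9L, an interferon-induced antiviral gene, had 3.97, 4.91 and 4.18 CPM in GFP low cells, against 0.954, 1.28 and 1.15 CPM in GFP high cells (1.93 ± 0.14). SELPLG, the ligand by which leukocytes roll on selectins, had 3.07, 2.37 and 2.88 CPM in GFP low cells, against 0.777, 1.21 and 1.09 CPM in GFP high cells (1.42 ± 0.18). In each of these the GFP high level was near 1 CPM. That the groups did not overlap was a condition for naming genes of this rank. Others of this rank are the glycine receptor subunit GLRA3 (1.89 ± 0.18), the membrane protein MLC1 of astrocytes (1.74 ± 0.18) and the G protein regulator RGS18 (1.41 ± 0.15). HRK and 3 antibody heavy chain genes of this rank are described below.

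Among genes at 1 CPM or above, the largest decrease was that of CD28, the costimulatory receptor best known from T cells, with 0.828, 0.573 and 0.553 CPM in GFP low cells, against 2.51, 2.26 and 2.52 CPM in GFP high cells (-1.904 ± 0.21, adjusted p = 4.46e-07). The sialic acid receptor CD33 had 1.36, 1.36 and 1.43 CPM in GFP low cells, against 3.39, 4.15 and 4.17 CPM in GFP high cells (-1.496 ± 0.15). DNASE1L3, a secreted nuclease that digests chromatin, was also lower (-1.43 ± 0.18). All 3 genes were at low levels, and groups that do not overlap were a condition for naming them. At higher levels, MGLL, which breaks down monoacylglycerols, had 23.1, 22.3 and 26.1 CPM in GFP low cells, against 53.5, 53.6 and 55.3 CPM in GFP high cells (-1.18 ± 0.05), and the adaptor GRAP of the GRB2 family had 14.2, 12.1 and 14.7 CPM in GFP low cells, against 30.02, 30.3 and 34.2 CPM in GFP high cells (-1.204 ± 0.07). UBASH3A, which dampens antigen receptor signalling, fell by 1.24 on the log2 scale, and MARCHF1, the ubiquitin ligase that removes MHC class II and CD86 from the cell surface, fell by 1.39. The adhesion genes NRCAM (-1.46 ± 0.18) and JUP (-1.23 ± 0.12) were lower too, as were the lipid transporter gene ABCA6 (-1.405 ± 0.11), HEMGN of blood progenitors (-1.27 ± 0.13), DBNDD1 (-1.2997 ± 0.15) and SPATA48 (-1.25 ± 0.10). LTB and AIF1, from 1 stretch of chromosome 6, are described next.

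**Figure D1:**
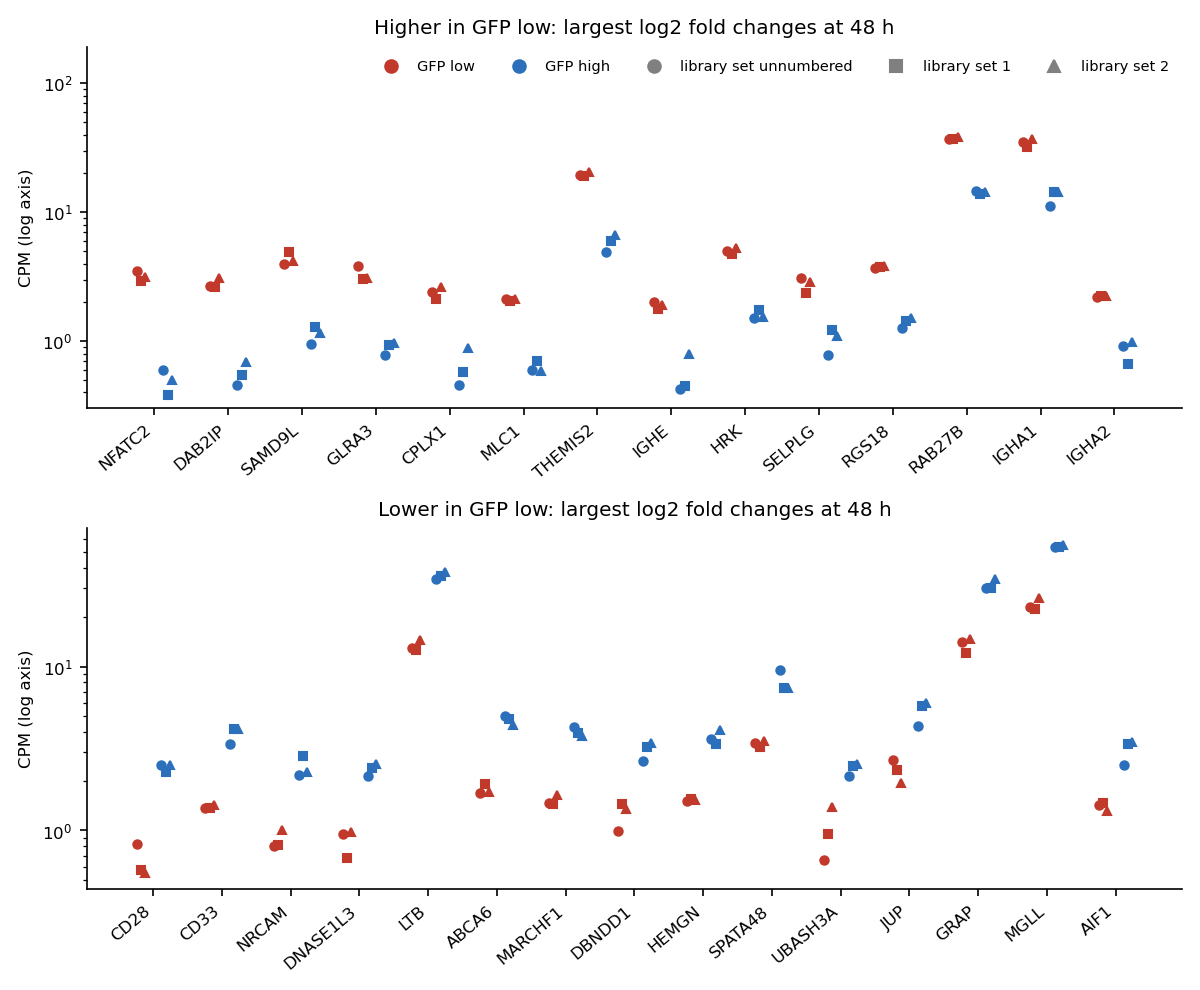
CPM (log axis) of genes that rose and genes that fell by the largest folds at 48 h, among those the naming rule admits. Red points on the left of each gene are GFP low libraries and blue points on the right GFP high libraries; the marker gives the library set. The naming rule admits only genes in which no GFP low library overlaps a GFP high library. NFATC2 and CD28 have the widest gaps.

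LTB, LTA and TNF encode the lymphotoxins and tumour necrosis factor, cytokines that organise lymphoid tissue and signal to NF-kB, and they lie side by side on chromosome 6. LTB (ENSG00000227507.3, chromosome 6, 31580525 to 31582522, minus strand) had 13.05, 12.6 and 14.5 CPM in GFP low cells, against 34.02, 35.8 and 37.9 CPM in GFP high cells (-1.42 ± 0.06, adjusted p = 1.54e-13). LTA had 18.3, 17.4 and 19.8 CPM in GFP low cells, against 38.04, 36.5 and 37.3 CPM in GFP high cells (-1.01 ± 0.05, adjusted p = 5.15e-13). TNF had 8.71, 7.93 and 7.63 CPM in GFP low cells, against 16.6, 15.1 and 16.3 CPM in GFP high cells (-0.98 ± 0.07, adjusted p = 1.06e-09). For each gene all 3 GFP low libraries lay well below all 3 GFP high ones. Among the other tested genes of this family the receptors CD40 (-0.40 ± 0.04) and CD27 (-0.27 ± 0.04) and the ligand TNFSF9 (-0.42 ± 0.06) were lower, so that 7 of 16 fell (8 lower and 2 higher with the library set as a block, called the blocked fit below; median of the list -0.13). TNFRSF1B alone was higher, at 0.538 ± 0.00619 CPM in GFP low and 0.254 ± 0.0646 CPM in GFP high cells (SD, n = 3 each). This call was lost without the GFP high library of set 1 or that of set 2 (edgeR adjusted p up to 0.121).

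The neighbours of LTB were looked at after these values were seen. Of the 10 tested genes from NFKBIL1 to BAG6, a span of 105.83 kb, 8 were lower and none higher (13.2% and 10.6% over all genes tested). LST1, a leukocyte membrane protein, was at 0.122, 0.136 and 0.0763 CPM in GFP low cells, against 0.777, 0.478 and 0.419 CPM in GFP high cells (-2.29 ± 0.38), and NCR3, a receptor of natural killer cells, was at 0.0243, 0.0818 and 0.172 CPM in GFP low cells, against 0.495, 0.542 and 0.545 CPM in GFP high cells (-2.38 ± 0.44). Both are near the detection limit. LST1 had 14 counts and NCR3 13 over the GFP low libraries, against 57 each over the GFP high libraries. No library of one group reached the other, but the filter on low counts can admit such genes through GFP high libraries alone, which favours a gap. AIF1, an actin-binding protein, had 1.44, 1.47 and 1.32 CPM in GFP low cells, against 2.51, 3.35 and 3.46 CPM in GFP high cells (-1.16 ± 0.13). PRRC2A was lower by a small step (-0.18 ± 0.05), and the small nucleolar RNA SNORA38 inside it fell by 0.60 on the log2 scale. The genes at both ends, NFKBIL1 (0.03 ± 0.11, adjusted p = 0.88) and BAG6 (-0.01 ± 0.04, adjusted p = 0.868), were not called. LTA, TNF, LTB, LST1, NCR3 and AIF1 were also called lower at 24 and 72 h.

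**Figure D2:**
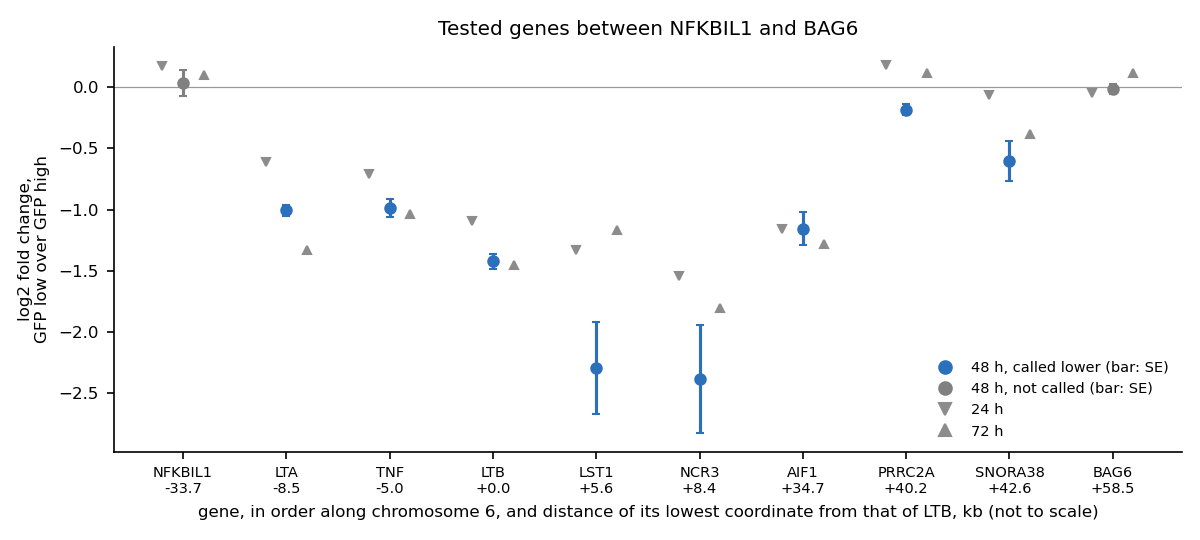
Log2 fold change of GFP low over GFP high for the 10 tested genes from NFKBIL1 to BAG6, in chromosome order, with the distance from LTB in kb under each name. Circles with SE bars are 48 h (blue, called lower; grey, not called) and triangles 24 and 72 h. The genes from LTA to AIF1 lie at -0.98 or lower at 48 h, and the end genes lie at 0.03 and -0.01.

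The promoter windows of LTB and LTA are shown because both genes fell together and the windows shown hold a match to the degenerate NF-kB consensus of 10 bases, in capitals. The windows run from 250 bases before to 50 bases after the transcription start, 5′ to 3′ in the gene's direction, from RefSeq on GRCh38.p14 (LTB chr6:31582376-31582675, minus strand; LTA chr6:31572039-31572338, plus strand).
LTB: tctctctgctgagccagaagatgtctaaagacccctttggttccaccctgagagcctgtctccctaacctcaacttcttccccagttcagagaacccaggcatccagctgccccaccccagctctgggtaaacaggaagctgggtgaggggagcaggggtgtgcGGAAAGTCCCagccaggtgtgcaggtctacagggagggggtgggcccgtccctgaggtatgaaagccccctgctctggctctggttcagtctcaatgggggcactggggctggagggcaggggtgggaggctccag
LTA: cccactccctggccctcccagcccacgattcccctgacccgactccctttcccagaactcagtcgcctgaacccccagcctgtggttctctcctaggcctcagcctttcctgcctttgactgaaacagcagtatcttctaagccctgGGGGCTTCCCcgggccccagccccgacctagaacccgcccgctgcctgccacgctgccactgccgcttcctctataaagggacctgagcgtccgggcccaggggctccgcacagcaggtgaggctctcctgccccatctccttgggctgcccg
The match in LTB reads GGAAAGTCCC, is on the opposite strand and begins 86 bases before the start; that in LTA reads GGGGCTTCCC, is on the gene's strand and begins 103 bases before it. RefSeq gives each gene 2 windows: both of LTB hold a match, and of LTA only the 1 shown does. On either strand, 5.91% of 35116 promoter windows hold such a match. The window of TNF holds none of these letters.

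Light zone genes were mostly lower, and genes of the NF-kB pathway itself were more often lower than higher. Of 19 NF-kB subunit and feedback genes, 7 were lower and 2 higher (11 and 3 with the library set as a block), with NFKB1 at -0.19 ± 0.03 and REL at -0.20 ± 0.03 among those lower, and the feedback deubiquitinase TNFAIP3 at 0.25 ± 0.04 among those higher. Of 18 light zone centrocyte markers, 13 were lower and 2 higher, with a median of -0.20 against -0.01 over all genes tested. CD83, which stabilises MHC class II on the surface, had 160.2, 163 and 161 CPM in GFP low cells, against 204, 201 and 204 CPM in GFP high cells (-0.33 ± 0.02, adjusted p = 3.45e-11). The costimulator CD80 (-0.35 ± 0.04), CD40 and the guidance molecule SEMA7A (-0.72 ± 0.06) were lower as well. No library of one group reached the other in these. EBI3, a cytokine subunit, was an exception and higher (0.45 ± 0.06). MYC, which selected light zone cells induce, was also higher (0.15 ± 0.04), a call that was lost without the GFP high library of set 1 (0.11, adjusted p = 0.0616). Dark zone centroblast markers went both ways, with 6 of 19 higher and 9 lower (6 and 11 with the library set as a block). Their median was -0.14, so a lean downward was not particular to the light zone list. The chemokine receptor CXCR4, which holds cells in the dark zone, had 114, 118 and 118 CPM in GFP low cells, against 81.4, 79.6 and 80.5 CPM in GFP high cells (0.54 ± 0.03, adjusted p = 1.75e-12), and CD27 was lower.

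Targets of BCL6 leaned upward. Of 20 tested, 10 were higher and 6 lower (median 0.17), against 10.6% and 13.2% over all genes tested. PRDM1, the repressor that starts plasma cell differentiation (ENSG00000057657.17, chromosome 6, 105993463 to 106109939, plus strand), had 80.02, 77.9 and 77.01 CPM in GFP low cells, against 31.9, 30.5 and 30.3 CPM in GFP high cells (1.34 ± 0.04, adjusted p = 3.13e-16). GPR183, the oxysterol receptor that moves B cells to the outer follicle, had 22.6, 22.5 and 20.9 CPM in GFP low cells, against 9.86, 8.93 and 9.83 CPM in GFP high cells (1.2004 ± 0.08, adjusted p = 8.93e-11). CCR7, which guides lymphocytes to T cell zones, had 10.9, 10.1 and 11.7 CPM in GFP low cells, against 5.16, 4.37 and 5.16 CPM in GFP high cells (1.15 ± 0.10, adjusted p = 3.47e-08). All 3 were more than 2-fold higher in GFP low cells in every library set. Other members went the opposite way, among them the cell cycle inhibitor CDKN1A (-0.55 ± 0.05) and CD80. BCL6 itself did not pass the test, with 318, 315 and 325 CPM in GFP low cells, against 327, 328 and 337 CPM in GFP high cells (-0.05 ± 0.02, adjusted p = 0.0873; 0.00143 in the blocked fit).

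Among 25 transcription factors of B cell identity 9 were higher and 3 lower (9 and 8 with the library set as a block). ID3, which holds E proteins off DNA, had 25.9, 26.3 and 29.8 CPM in GFP low cells, against 13.7, 13.9 and 15.1 CPM in GFP high cells (0.94 ± 0.07, adjusted p = 1.45e-09), and the partner of E proteins in the dark zone, FOXO1, had 75.4, 72.99 and 72.4 CPM in GFP low cells, against 53.3, 52.4 and 50.8 CPM in GFP high cells (0.50 ± 0.03). IRF4 was higher (0.59 ± 0.14), while IRF8 (-0.23 ± 0.02), SPIB (-0.30 ± 0.04) and BCL11A (-0.23 ± 0.03) were lower. PAX5, the factor that maintains B cell identity, did not pass the test (-0.08 ± 0.03, adjusted p = 0.0736; 9.27e-06 in the blocked fit). Of 14 plasma cell genes 6 were higher and 2 lower, and their direction was mixed in substance: DERL3, which serves the removal of misfolded secretory proteins, had 19.6, 17.8 and 19.5 CPM in GFP low cells, against 10.6, 11.03 and 13.1 CPM in GFP high cells (0.70 ± 0.08), but CD38, a surface enzyme high on both plasma cells and germinal centre B cells, had 21.96, 24.1 and 22.96 CPM in GFP low cells, against 49.6, 50.5 and 49.6 CPM in GFP high cells (-1.12 ± 0.04, adjusted p = 7.81e-15).

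Several receptors that place B cells in the follicle were higher, and integrin chains were among the genes that were lower. Of 19 genes of adhesion, homing and positioning, 8 were higher and 6 lower. Besides GPR183, CCR7, CXCR4 and SELPLG, the higher ones include CXCR5 (0.24 ± 0.05), the sphingosine phosphate receptor S1PR2 that confines germinal centre cells (0.40 ± 0.04) and the chemokine signal dampener RGS1, with 71.5, 73.8 and 71.03 CPM in GFP low cells, against 41.2, 42.1 and 40.5 CPM in GFP high cells (0.81 ± 0.03, adjusted p = 2.26e-13). The lower ones include the integrin chains ITGAL (-0.61 ± 0.05) and ITGB7 (-0.42 ± 0.04). RGS13, a regulator of G protein signals in germinal centre cells, was lower (-0.24 ± 0.04).

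**Figure D3:**
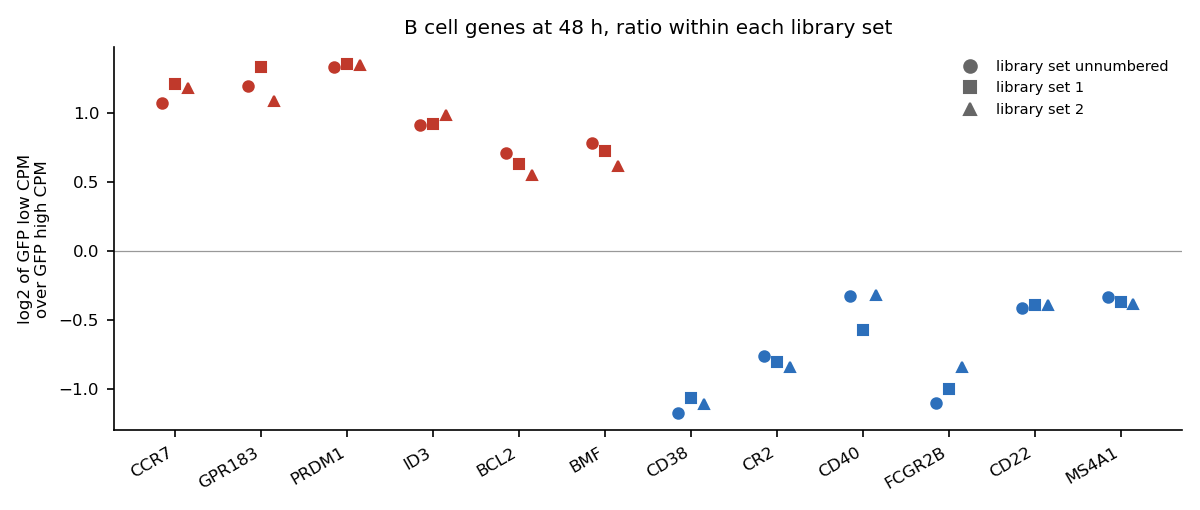
Log2 ratio of the GFP low CPM to the GFP high CPM within each library set at 48 h, for 12 genes of the B cell lists; red genes were higher and blue genes lower in GFP low cells, and the marker gives the set. The 3 sets lie on the same side of 0 for every gene, and PRDM1 is the tightest of the higher ones, near 1.34.

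Genes of B cell receptor signalling were lower in 14 and higher in 6 of 28 cases, against 13.2% and 10.6% over all genes tested. CR2, the complement receptor that strengthens antigen signals (ENSG00000117322.18, chromosome 1, 207454230 to 207489895, plus strand), had 139, 136 and 131 CPM in GFP low cells, against 236, 237 and 235 CPM in GFP high cells (-0.80 ± 0.02, adjusted p = 3.85e-16). The inhibitory receptor CD22 had 476, 480.5 and 498 CPM in GFP low cells, against 633, 631 and 652 CPM in GFP high cells (-0.40 ± 0.02, adjusted p = 3.45e-11). Both activating and inhibitory members had lower counts, the phosphatase PTPN6 included (-0.52 ± 0.04). The kinase PRKCB (-0.29 ± 0.02) was lower as well. Next to THEMIS2, the receptor chain CD79B (0.27 ± 0.04) and MALT1 (0.28 ± 0.04) were higher. Of 8 general B cell markers 4 were lower and 1 higher, with MS4A1, the CD20 antigen, at -0.36 ± 0.03 and the tetraspanin CD37 at -0.56 ± 0.05.

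The Fc receptor-like and SLAM families were lower in 9 and higher in 1 of 17 cases, with a median of -0.24. The shares over all genes tested were 13.2% and 10.6%. FCRLA, an intracellular relative of Fc receptors in germinal centre cells, had 73.1, 70.5 and 69.1 CPM in GFP low cells, against 132, 133 and 137 CPM in GFP high cells (-0.92 ± 0.03, adjusted p = 3.13e-16). FCGR2B, the inhibitory Fc receptor of B cells, had 7.62, 7.63 and 8.54 CPM in GFP low cells, against 16.4, 15.2 and 15.3 CPM in GFP high cells (-0.97 ± 0.07, adjusted p = 6.58e-10). CD84 (-0.36 ± 0.03) and the SLAM adaptor SH2D1A (-0.52 ± 0.03) fell with them, whereas SLAMF6 had 71.3, 70.8 and 69.2 CPM in GFP low cells, against 48.8, 50.03 and 47.4 CPM in GFP high cells (0.53 ± 0.03). In these genes the groups did not overlap.

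Antigen presentation genes that were called shifted by small steps, mostly downward. The shares over all genes tested were 13.2% lower and 10.6% higher. Of 17 genes of MHC class I and peptide loading 10 were lower and 1 higher; B2M, the common light chain, had 345, 339 and 334 CPM in GFP low cells, against 410.4, 413 and 398 CPM in GFP high cells (-0.26 ± 0.02, adjusted p = 5.1e-09), and the peptide transporter TAP2 (-0.26 ± 0.03), the loading factor TAPBP (-0.29 ± 0.04) and the trimming peptidase ERAP2 (-0.46 ± 0.07) were lower. Of 18 MHC class II genes 8 were lower and 3 higher (10 and 5 with the library set as a block). The transactivator CIITA (-0.18 ± 0.03), the exchange factor HLA-DMB (-0.26 ± 0.03) and HLA-DRA (-0.11 ± 0.02) were lower, while its opponent in peptide exchange HLA-DOA (0.17 ± 0.03) and the promoter factor RFX5 (0.17 ± 0.03) were higher.

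Most constant region genes of the antibody heavy chain were higher. Their locus was taken up after the values were seen, and since the genes are near copies of each other, the reads of one can be counted for another. IGHM, the mu chain that Raji cells carry, had 3016, 3025 and 3239 CPM in GFP low cells, against 2539, 2586 and 2685 CPM in GFP high cells (0.25 ± 0.04, adjusted p = 2.52e-05). IGHA1 had 34.8, 32.3 and 36.8 CPM in GFP low cells, against 11.3, 14.3 and 14.2 CPM in GFP high cells (1.37 ± 0.07, adjusted p = 3.04e-12). IGHE had 1.996, 1.77 and 1.91 CPM in GFP low cells, against 0.424, 0.446 and 0.797 CPM in GFP high cells (1.696 ± 0.29, adjusted p = 0.000136). The step was small for the abundant mu chain and more than 2-fold for the alpha and epsilon genes. IGHA2 (1.36 ± 0.18), IGHG2 (1.16 ± 0.13), IGHG3 (0.42 ± 0.06) and IGHG1 (0.23 ± 0.05) were higher too. Of the 10 genes tested across this stretch of 272.49 kb on chromosome 14, 7 were higher and none lower. IGHG4 (0.26 ± 0.24, adjusted p = 0.498) and IGHD (-0.31 ± 0.55, adjusted p = 0.755) did not pass, nor did the noncoding COPDA1 (0.62 ± 0.34, adjusted p = 0.207).

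The BCL2 family, which controls the release of cytochrome c from mitochondria, had more higher than lower members. Of 15 tested genes 7 were higher and 3 lower (median 0.23), against 10.6% and 13.2% over all genes tested. HRK, a BH3-only protein that promotes death, had 4.97, 4.74 and 5.301 CPM in GFP low cells, against 1.52, 1.75 and 1.55 CPM in GFP high cells (1.64 ± 0.13, adjusted p = 2.88e-09), and BMF, another, had 33.4, 35.04 and 33.6 CPM in GFP low cells, against 19.5, 21.2 and 21.9 CPM in GFP high cells (0.70 ± 0.05, adjusted p = 4.75e-10). BCL2 was the one protective member that was higher, with 25.2, 25.2 and 25.6 CPM in GFP low cells, against 15.4, 16.3 and 17.5 CPM in GFP high cells (0.62 ± 0.04, adjusted p = 5.41e-10). The death-promoting genes BCL2L11, which encodes BIM (0.33 ± 0.02), BIK (0.42 ± 0.06), BID (0.38 ± 0.03) and PMAIP1 (0.23 ± 0.03) were higher. The protective members MCL1 (-0.23 ± 0.02) and BCL2A1 (-0.65 ± 0.08) were lower, the second with 3.97, 4.199 and 3.72 CPM in GFP low cells, against 5.97, 6.22 and 6.33 CPM in GFP high cells. The pore-forming death effector BAX was lower too (-0.16 ± 0.04), a call that was lost without the unnumbered GFP high library (adjusted p = 0.0667). All libraries of each named gene were on their group's side.

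RNA from the mitochondrial genome was lower. It took 2.95%, 2.87% and 2.87% of counts in GFP low libraries, against 3.78%, 3.63% and 3.68% in GFP high libraries, a difference of -0.798 percentage points (exact permutation test, 2-sided, p = 0.1, the smallest that 3 against 3 libraries allow). All 13 protein-coding genes were called lower, with a median of -0.42. MT-CO2, a subunit of cytochrome c oxidase, had 2756, 2776 and 2717 CPM in GFP low cells, against 3719.9, 3647 and 3775 CPM in GFP high cells (-0.43 ± 0.02, adjusted p = 3.28e-13). MT-ATP6, a subunit of ATP synthase, had 1554, 1475 and 1454 CPM in GFP low cells, against 2205, 2051 and 2042 CPM in GFP high cells (-0.49 ± 0.05, adjusted p = 8.21e-08). The smallest step was that of MT-ND6 (-0.23 ± 0.05, adjusted p = 0.00181), the only one of the 13 on the light strand; whether the counting used strand is not given. Copies of mitochondrial genes in nuclear DNA can share reads with them.

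Nuclear genes of the respiratory chain did not share the decrease as a group. Those that serve mitochondrial DNA and RNA leaned lower, mainly with the library set as a block. Of 38 nuclear genes of the respiratory chain 3 were higher and 4 lower, with a median of 0.02 (11 higher and 9 lower with the library set as a block). Of 25 genes that copy, transcribe or process mitochondrial DNA and RNA, none was higher and 3 were lower, or 1 and 11 with the block; the lower ones include the polymerase POLG (-0.17 ± 0.03), and the factor TFAM did not pass (-0.07 ± 0.03, adjusted p = 0.0979; 0.00339 in the blocked fit). Of the 13 mitochondrial coding genes 12 had also been lower at 24 h, whereas 12 were higher at 72 h. For MT-CO2 the log2 fold changes were -0.78, -0.43 and 0.59 at 24, 48 and 72 h, and the value at 48 h was below that at 72 h by 1.02 (adjusted p = 1.04e-16).

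**Figure D4:**
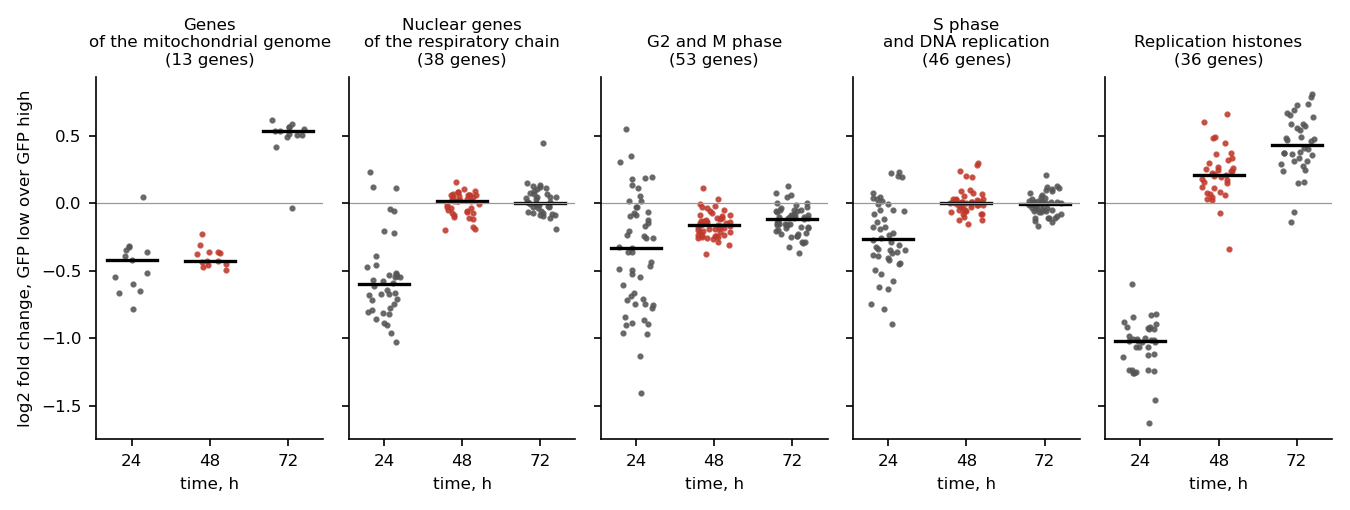
Log2 fold changes of GFP low over GFP high at 24, 48 and 72 h for the tested members of 5 gene lists; points are genes, red at 48 h, and the black line is the median. At 48 h mitochondrial coding genes centre at -0.42, nuclear respiratory chain genes at 0.02, G2 and M phase genes at -0.16, S phase genes at 0.00 and replication histones at 0.21.

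Genes of G2 and mitosis were lower nearly throughout, by small steps. Of 53 tested, 41 were lower and 1 higher, with a median of -0.16. CDK1, the kinase that starts mitosis, had 129, 125 and 125 CPM in GFP low cells, against 151, 156 and 153 CPM in GFP high cells (-0.29 ± 0.03, adjusted p = 1.11e-07). MKI67, the proliferation antigen on mitotic chromosomes, had 938, 899 and 902 CPM in GFP low cells, against 1081, 1043 and 1049 CPM in GFP high cells (-0.21 ± 0.02, adjusted p = 1.05e-06). The spindle gene ASPM (-0.31 ± 0.03), the kinase PLK1 (-0.19 ± 0.03) and CKS2 (-0.37 ± 0.04) were lower, and the checkpoint kinase BUB1 was the member that was higher (0.11 ± 0.03). Genes of S phase had no such shift: 6 of 46 were higher and 4 lower (7 and 10 with the library set as a block), with a median of 0.00. Thymidylate synthase TYMS (0.20 ± 0.03), the primase PRIM1 (0.30 ± 0.05) and GINS3 (0.20 ± 0.03) were higher, MCM4 was lower (-0.07 ± 0.01), and the sliding clamp PCNA did not pass (-0.06 ± 0.02, adjusted p = 0.0876; 0.00106 in the blocked fit). Among G1 regulators, 5 of 15 were higher and 3 lower; the inhibitors CDKN1A, with 13.97, 13.6 and 14.5 CPM in GFP low cells, against 19.6, 20.9 and 21.2 CPM in GFP high cells, and CDKN2D (-0.69 ± 0.10) were lower and CDKN1B (0.30 ± 0.05) was higher, and of the kinases CDK6 was lower (-0.24 ± 0.02).

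Replication histone genes were higher. Their transcripts accompany DNA synthesis and end in a stem-loop in place of a poly(A) tail. Of 36 tested, 26 were higher and none lower, with a median of 0.21 (30 higher and 1 lower with the library set as a block). H4C3 had 122, 109 and 117 CPM in GFP low cells, against 76.3, 70.5 and 73.5 CPM in GFP high cells (0.66 ± 0.04, adjusted p = 1.65e-10), and H2BC11 had 125, 119.8 and 126 CPM in GFP low cells, against 81.8, 80.9 and 82.6 CPM in GFP high cells (0.60 ± 0.03, adjusted p = 1.35e-11). H3C8 (0.48 ± 0.05) and H3C12 (0.45 ± 0.04) showed the same, while the linker histone H1-5 did not pass (-0.08 ± 0.04, adjusted p = 0.184; 3.15e-10 in the blocked fit). Histone genes are near copies, so single members are uncertain. At 24 h all 36 had been lower in GFP low cells, with a median of -1.02, and at 72 h 34 were higher, with a median of 0.43.

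The promoter window of H2BC11 (RefSeq, GRCh38.p14, chr6:27132746-27133045, minus strand, 5′ to 3′) is shown because its gene rose and it carries the octamer ATTTGCAT, in capitals, which is typical of H2B promoters and bound by OCT1.
H2BC11: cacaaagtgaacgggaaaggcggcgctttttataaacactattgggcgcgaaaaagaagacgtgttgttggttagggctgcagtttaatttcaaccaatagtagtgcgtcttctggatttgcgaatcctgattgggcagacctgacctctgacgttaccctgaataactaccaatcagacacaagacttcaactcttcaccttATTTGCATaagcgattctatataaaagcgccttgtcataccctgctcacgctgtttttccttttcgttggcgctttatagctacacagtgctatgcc
The octamer begins 47 bases before the start. On either strand 1.77% of all 35116 windows hold it, against 16 of 38 windows of the replication histone genes (42.1%) and 8 of 11 windows of their H2B members (72.7%).

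Several noncoding RNAs moved too. RN7SL1, the RNA of the signal recognition particle, had 1649, 1229.8 and 1600.2 CPM in GFP low cells, against 587, 783 and 859.9 CPM in GFP high cells (1.004 ± 0.13, adjusted p = 4.02e-06), a difference in CPM second to that of EEF1A1 among genes higher in GFP low cells. The log2 ratio within the library sets varied, at 1.49, 0.65 and 0.90. RPS29 overlaps RN7SL1 on the other strand, and whether the counting used strand is not given. Of the 11 members of the RNA quality list 5 could be tested, and RN7SL2 could not. The other 4 tested members were lower: MALAT1 (-0.23 ± 0.02), NEAT1 (-0.15 ± 0.02) and the snoRNA hosts GAS5 (-0.35 ± 0.02) and SNHG1 (-0.53 ± 0.03). Small RNA types were higher in 14 and lower in 37 of 381 cases. Ribosomal RNA genes, counting those of the mitochondrial genome, took a smaller share in GFP low libraries. It was 0.0197% to 0.0200% of counts there and 0.0297% to 0.0350% in GFP high libraries. The part of these RNAs in the histone and mitochondrial results was not tested.

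Among metabolic and stress programmes, genes of lipid synthesis and chaperones leaned lower, by small steps. The unfolded protein response, integrated stress response and glycolysis lists did not shift as groups. Their medians were 0.002, -0.03 and -0.007, against -0.009 over all genes tested. Of 28 genes of cholesterol and fatty acid synthesis, 16 were lower and 2 higher (20 and 4 with the library set as a block), with a median of -0.13. INSIG1, the sterol sensor that restrains the pathway, had 296 ± 5.18 CPM in GFP low and 396 ± 5.07 CPM in GFP high cells (SD, n = 3 each; edgeR log2 fold change -0.42 ± 0.02, adjusted p = 1.79e-12), the desaturase SCD had 1079.6, 1095 and 1092 CPM in GFP low cells, against 1243, 1245 and 1249.9 CPM in GFP high cells (-0.19 ± 0.01), and HMGCS1 was lower (-0.24 ± 0.02). Of 17 heat shock and chaperone genes 8 were lower and 1 higher, with HSPA1B at -0.28 ± 0.03. Of 20 unfolded protein response genes 7 were lower and 5 higher: the chaperone HSPA5 (-0.24 ± 0.01) and HERPUD1 (-0.25 ± 0.02) were lower, while the sensor ERN1 (0.28 ± 0.06) and HSP90B1 (0.21 ± 0.02) were higher. Of 20 genes of the integrated stress response 5 were lower and 3 higher (8 and 5 with the block), and among glycolysis and hypoxia genes 1 of 24 was lower and 2 were higher (5 and 8 with the library set as a block).

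Of 19 p53 targets 8 were lower and 1 higher (10 and 4 with the library set as a block). The shares over all genes tested, without the block, were 13.2% and 10.6%. FAS, the death receptor (-0.39 ± 0.04), TNFRSF10B (-0.39 ± 0.04) and CDKN1A were lower; the one higher without the block was TP53INP1, with 24.2, 23.995 and 22.96 CPM in GFP low cells, against 9.68, 9.502 and 8.74 CPM in GFP high cells (1.35 ± 0.05, adjusted p = 8.75e-14). Immediate early genes were lower in 5 and higher in 1 of 21 cases (6 and 2 with the block). There EGR1, induced by antigen receptor signals, was lower (-0.43 ± 0.07), and DUSP5, a phosphatase of ERK, had 55.5, 55.4 and 57.2 CPM in GFP low cells, against 22.9, 21.9 and 23.5 CPM in GFP high cells (1.297 ± 0.04, adjusted p = 3.85e-16). Of 25 interferon-stimulated genes 8 were higher and 2 lower, with OAS1 (0.79 ± 0.17) next to SAMD9L. Ribosomal protein genes were near 0 as a group, with a median of -0.01; 1 of 65 was higher and 10 lower (18 and 25 with the block), and RPL9 was lowest (-0.17 ± 0.03). Of 30 MYC network genes 2 were higher and 9 lower (5 and 12 with the block), and of 23 polycomb genes and histone modifiers of lymphoma 3 were higher and 4 lower (5 and 6 with the block), with the demethylase KDM6B at -0.39 ± 0.05 and JARID2 at 0.49 ± 0.08.

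**Figure D5:**
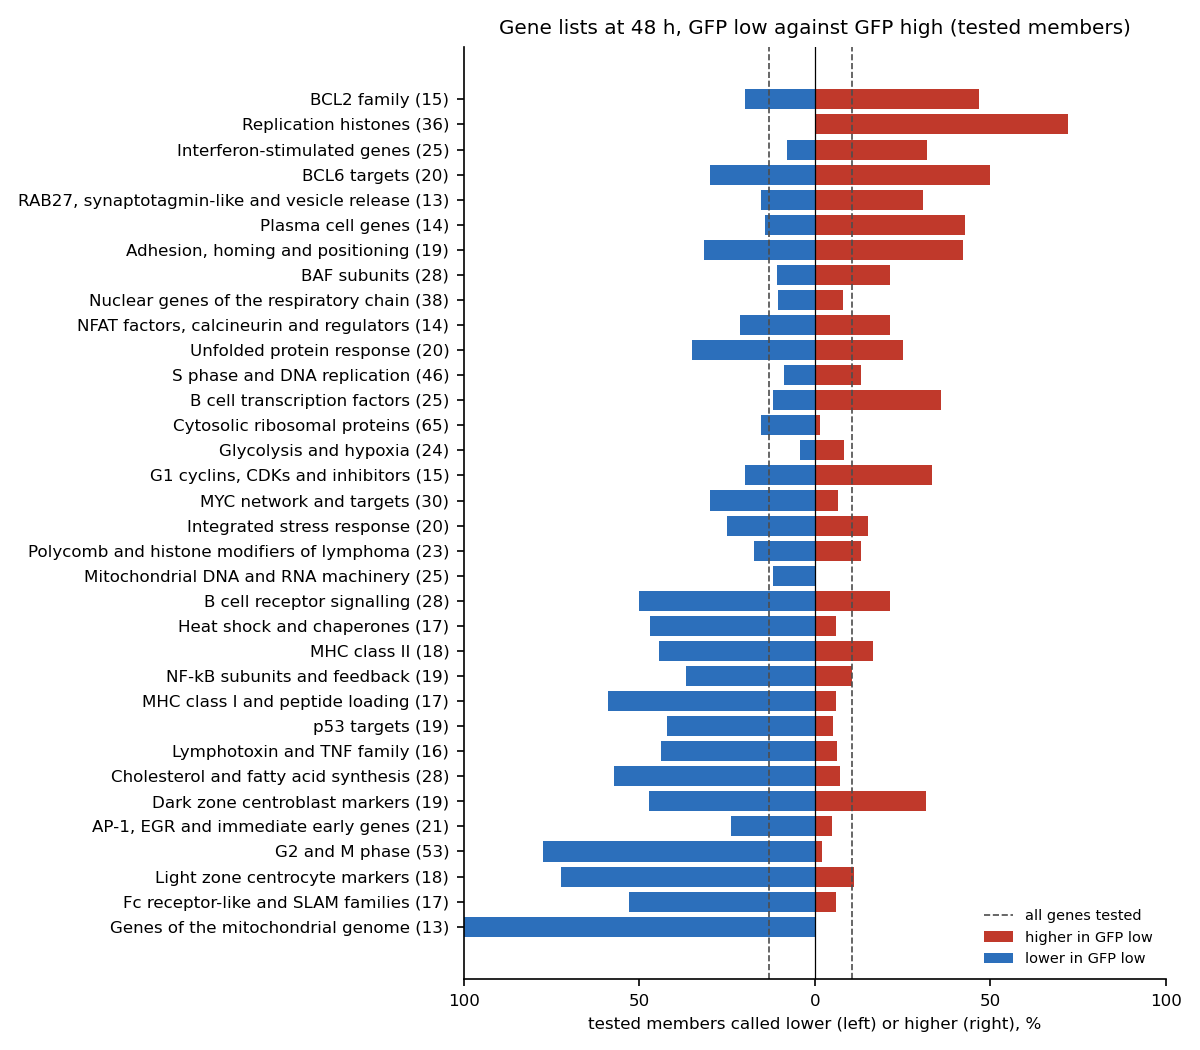
Share of the tested members of each gene list (number in parentheses, lists of 13 or more) called higher in GFP low cells, in red to the right, or lower, in blue to the left, at 48 h; dashed lines mark 10.6% and 13.2%, the shares over all genes tested. Lists are ordered by their median log2 fold change. Replication histones stand out to the right, and mitochondrial genome, G2 and M phase and light zone lists to the left.

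The largest differences in CPM, which grow with a gene's length and abundance, were modest as ratios. Besides RN7SL1 and IGHM, the genes higher by most CPM were the lysosomal saposin precursor PSAP, with 768, 758 and 789.9 CPM in GFP low cells, against 462, 467 and 478 CPM in GFP high cells (0.72 ± 0.02), the nuclear envelope linker SYNE2 (0.43 ± 0.02), the membrane-actin linker EZR (0.33 ± 0.02), the ferritin heavy chain FTH1 (0.21 ± 0.01), the motor DYNC1H1 (0.18 ± 0.02), GAPDH (0.10 ± 0.02), EEF1A1 (0.10 ± 0.01) and RPL4 (0.08 ± 0.02). The call of EEF1A1 was lost when library set was a block (adjusted p = 0.722). Those lower by most CPM were MALAT1 and 9 mitochondrial genes.

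The comparison was set beside that at 24 and at 72 h, which used other libraries. At 24 h 4835 genes were higher (29.3%) and 4696 lower (28.5%), and at 72 h 2123 (12.9%) and 2222 (13.5%). Of the 1749 genes higher at 48 h, 1066 (60.9%) were also higher at 24 h, which is 22.05% of the genes higher at 24 h, and 316 were lower there; 933 (53.3%) were also higher at 72 h, which is 43.9% of the genes higher then, and 50 were lower. Of the 2177 genes lower at 48 h, 1145 (52.6%) were lower at 24 h and 517 higher, and 1040 (47.8%) were lower at 72 h and 164 higher. In all, 685 genes were higher and 702 lower at every time. The effect at 48 h differed from that at 24 h in 7159 genes (43.5%) and from that at 72 h in 1486 (9.02%). The second count was 3331 with the library set as a block.

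Single genes show these patterns. NFATC2 had log2 fold changes of 4.01, 2.69 and 2.64 at 24, 48 and 72 h, and its effect at 48 h was smaller than at 24 h (difference -1.33 ± 0.25, adjusted p = 0.000175). MLC1 had -0.14, 1.74 and 1.92, so that it was called at 48 and 72 h and not at 24 h (difference from 24 h 1.88 ± 0.30, adjusted p = 2.14e-05). ID3 likewise had 0.03, 0.94 and 0.93 (difference from 24 h 0.91 ± 0.11, adjusted p = 3.44e-07). CCR7 had smaller effects at later times, with 2.08, 1.15 and 0.37, and its effect at 48 h differed from both (adjusted p = 1.17e-05 and 0.00572). The decrease of LTB was larger at 48 h than at 24 h (difference -0.33 ± 0.08, adjusted p = 0.00225) and no difference between 48 and 72 h was detectable (difference 0.03 ± 0.08, adjusted p = 0.892).

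Few genes were called at 48 h and at neither other time with both differences called: 15 higher and 56 lower. The largest increases among them were RWDD2A (0.54 ± 0.10), TMEM117 (0.48 ± 0.11), the decoy receptor IL1R2 for interleukin 1 (0.47 ± 0.09), SPATA7 (0.39 ± 0.11), the interferon gamma receptor chain IFNGR2 (0.34 ± 0.04), PRIM1, the mitochondrial dehydrogenase IDH2 (0.27 ± 0.05) and the membrane raft protein FLOT2 (0.27 ± 0.05). IFNGR2 had 61.4, 53.99 and 57.1 CPM in GFP low cells, against 45.9, 43.1 and 47.4 CPM in GFP high cells. The largest decreases were the mitochondrial transfer RNA MT-TA (-0.77 ± 0.23), MAMDC4 (-0.70 ± 0.12), the proteasome subunit PSMA2 (-0.52 ± 0.08), ADM5 (-0.50 ± 0.10), the oxygen-sensing hydroxylase EGLN2 (-0.45 ± 0.07), HOOK2 (-0.44 ± 0.05), RNASEK (-0.44 ± 0.14) and the ATP transporter SLC17A9 (-0.43 ± 0.06). In the deposited table MAMDC4, PSMA2, ADM5, EGLN2, HOOK2, RNASEK and, among the increases, PRIM1 each overlap another gene on the same strand, so their counts are uncertain. RWDD2A, TMEM117, SPATA7, IFNGR2 and FLOT2 overlap genes on the other strand, and whether the counting used strand is not given. Genes named elsewhere overlap others on the same strand too, such as RAB27B and MARCHF1. The call of MT-TA was lost without either unnumbered library or the GFP high library of set 1 (adjusted p up to 0.104), and that of RNASEK without any 1 of the 4 libraries of the unnumbered set and set 1 (adjusted p up to 0.125). DESeq2 did not call SPATA7 (adjusted p = 0.065) or RNASEK (adjusted p = 0.0742), and with no filter on low counts edgeR did not call SPATA7 (adjusted p = 0.157) or RNASEK (adjusted p = 0.153).

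Some genes were called in opposite directions at 2 times. RN7SL1 was lower at 24 h (-0.80) and higher at 48 h, a difference of 1.804 ± 0.18 (adjusted p = 3.11e-08), and the histone genes H4C11 (difference 1.81 ± 0.20) and H4C12 (1.69 ± 0.14) did the same. TTN, the giant muscle protein gene, was higher at 48 h, with 64.2, 65.1 and 62.3 CPM in GFP low cells, against 38.7, 37.3 and 36.6 CPM in GFP high cells, and lower at 72 h (-0.44; difference 1.21 ± 0.06); an antisense gene and others overlap it. The spliceosomal RNU4-1 was lower at 24 h and higher at 48 h (0.75 ± 0.23). In the other direction, BBS1 (-0.68 ± 0.20), ADAMTS12 (-0.68 ± 0.12), CHRNA6 (-0.69 ± 0.12) and KCNAB3 (-0.67 ± 0.17) were lower at 48 h and higher at 24 h, and SNORA33 inside RPS12 was lower at 48 h (-0.70 ± 0.08) and higher at 72 h. BBS1, ADAMTS12 and KCNAB3 each overlap another gene on the same strand. DESeq2 did not call BBS1 (adjusted p = 0.0633). The calls at 48 h of RNU4-1, BBS1 and KCNAB3 were lost without the GFP high library of set 2. That of BBS1 was also lost without the GFP low library of set 2, and that of RNU4-1 without the unnumbered GFP low library or the GFP high library of set 1 (adjusted p up to 0.143 for RNU4-1, 0.0914 for BBS1 and 0.0651 for KCNAB3).

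Markers of other cell types were rare. Of 10 T cell markers 6 could be tested and 2 were lower, LCK (-0.45 ± 0.08) and TRAC (-0.63 ± 0.16); CD3D had 1.73, 1.31 and 1.91 CPM in GFP low cells, against 2.26, 2.07 and 2.41 CPM in GFP high cells and did not pass (-0.44 ± 0.18, adjusted p = 0.0825; 0.0364 in the blocked fit), and CD2 and CD8A had no count. Their summed level was 36.1 to 39.7 CPM in GFP low and 41.6 to 44.8 CPM in GFP high libraries. CD28 and UBASH3A moved the same way as these markers, and the part of such cells was not tested. Of 8 myeloid markers 3 could be tested and none was called, and their summed level was 0.818 to 1.53 CPM in GFP low and 0.812 to 1.02 CPM in GFP high libraries. Among erythroid markers HBB alone was tested and was called higher, with 0.828, 0.818 and 0.839 CPM in GFP low cells, against 0.459, 0.446 and 0.545 CPM in GFP high cells (0.75 ± 0.27, adjusted p = 0.0435), a call that was lost with any 1 of the 6 libraries left out (adjusted p up to 0.122) and with DESeq2 (adjusted p = 0.126). Among 8 epithelial, endothelial and fibroblast markers DCN was lower (-1.61 ± 0.20), at under 1.5 CPM. Among 6 germinal centre markers, MME (0.29 ± 0.03) and MYBL1 (0.27 ± 0.04) were higher, CD38 and RGS13 lower (2 higher and 4 lower with the library set as a block), and BCL6 did not pass without the block.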

How the data were processed

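Per the labels' protocols, total RNA came from RNeasy Plus Micro columns and KAPA HyperPrep libraries were depleted of ribosomal RNA, so RNA lacking a poly(A) tail is included. The deposited table holds unnormalized whole-number counts per gene in the layout of featureCounts, per the file headers. The submitters' processing notes name STAR, featureCounts of Subread, FastQC, R 4.2.1 and hg38. Strand setting, multimapping and annotation release: not given in the sources used here. Column names gave group and library set. Of 60710 lines, 60707 genes were read; ANK2, broken over 3 lines, was left out. Gene types are from GENCODE 29.

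Counts of all 18 libraries were fitted with edgeR 4.0.16 in R 4.3.3: filterByExpr (minimum count 10), TMM factors, 6 group means, 12 residual degrees of freedom, 2-sided quasi-likelihood F tests, adjusted p under 0.05. SE was taken as the size of the log2 fold change divided by the root of F. Counts of 16474 genes were simulated for the 48 h comparison. Of genes changed 1.2-, 1.5-, 2- and 4-fold, 64%, 88%, 94% and 100% were recovered, and 3.35% of all calls were false. The changed genes, 50 for each fold, averaged above 1 CPM, so recovery below that level is unknown. No effect of library set was simulated. Alternatives were DESeq2 1.42.0, RLE factors, other filters and totals, the 48 h libraries alone, a minimum fold and single libraries left out.

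Libraries of a group differed by more than sampling noise at 48 h (median chi-square over expectation 1.49 to 2.81). The library sets, from the column names, pair the libraries: deviations from group means correlated at 0.224 to 0.539 within the 45 same-set pairs, and each of the 18 libraries was closest to another library of its set. A fit with the set as a block is given for some of the genes and lists where it changes a call. Other list counts moved with it too, such as heat shock and chaperone genes (1 higher and 12 lower) and the BCL2 family (9 higher and 3 lower).

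Genes named are the 15 with the largest fold change and the 10 with the largest CPM difference each way, the 8 each way called only at 48 h, the 5 each way called in opposite directions at 2 times, the BAF subunits and leading members of 41 lists. For genes chosen by fold change, CPM difference or time, mean CPM had to reach 1 and groups could not overlap. Clone, LOC, LINC, antisense and pseudogene names were left out there. BAF subunits and list members were not held to these conditions. A few genes that these rules select are not reported here. The members, lists and rules were chosen with earlier results of these data known.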

Additional observations from a re-analysis of the deposited data

Results flagged for a closer look

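Of the 75 genes named for the rank of their difference or for a change between times, 56 had an effect of GFP low against GFP high at 48 h that differed from the effect at 24 or at 72 h in edgeR's test of that difference. Where both differed, the one with the smaller adjusted p is given. Genes named for a call only at 48 h or for opposite directions had to pass this test, so their part of the 56 was fixed beforehand. Over all genes tested, the effect at 48 h differed from that at 24 h in 43.5% and from that at 72 h in 9.02%. Groups of 3 libraries were not searched for libraries far from the others. None of these differences was tested for a cause.

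The effect at 48 h was above that at 24 h, on the log2 scale, by 1.88 for MLC1, 1.81 for H4C11, 1.80 for RN7SL1, 1.79 for RNU4-1, 1.69 for H4C12, 0.77 for EEF1A1, 0.71 for RGS18 and 0.60 for GAPDH. The same difference was 0.58 for SPATA7, 0.53 for RWDD2A, 0.51 for RPL4, 0.47 for PSAP, 0.45 for FTH1, 0.40 for TMEM117, 0.29 for IDH2 and 0.28 for IFNGR2. Smaller ones were 0.25 for PRIM1, 0.25 for IGHM and 0.24 for FLOT2. The effect at 48 h was below that at 24 h, with differences of -1.50 for BBS1, -1.33 for NFATC2, -1.15 for KCNAB3, -1.12 for CHRNA6, -1.07 for ADAMTS12, -0.91 for MARCHF1, -0.90 for MT-TA and -0.80 for NRCAM. It was also below by smaller amounts, at -0.75 for RNASEK, -0.72 for MAMDC4, -0.68 for DYNC1H1, -0.63 for MALAT1, -0.61 for ABCA6, -0.60 for JUP, -0.58 for SYNE2 and -0.57 for PSMA2. Next came -0.48 for ADM5, -0.39 for HOOK2, -0.34 for MGLL, -0.33 for RAB27B and -0.33 for LTB. In NFATC2, SYNE2, RAB27B and DYNC1H1 both effects were upward and that at 24 h was the larger.

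Against 72 h, all 9 mitochondrial coding genes named for their CPM differed: the effect at 48 h minus that at 72 h was -1.11 for MT-ATP6, -1.02 for MT-CO2, -1.004 for MT-ND2, -0.93 for MT-ND1, -0.92 for MT-ND4, -0.91 for MT-CYB, -0.87 for MT-CO3, -0.86 for MT-CO1 and -0.84 for MT-ND5. Each was lower in GFP low cells at 48 h and higher at 72 h. Of the other genes, the difference from 72 h was 0.47 for THEMIS2, 1.21 for TTN and 0.54 for IL1R2 on the upper side, and -0.47 for SLC17A9, -0.57 for EGLN2, -0.94 for SNORA33 and -0.77 for DBNDD1 on the lower side.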

How the results depend on the processing

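The 3926 calls at 48 h became 5780 with the library set as a replicate block, of which 3922 are shared and in the same direction, 3864 with RLE factors, 3530 with no filter on low counts, 3854 with library totals without mitochondrial genes, 3594 with the 48 h libraries alone, 3368 with DESeq2 and 3120 to 3325 with 1 library left out. No gene was called in opposite directions under any of these. Requiring more than a 1.2-fold difference left 568 calls, 343 higher and 225 lower. The 48 h libraries alone with the block gave 2767 higher genes. The difference between the effects at 48 and 72 h was called in 3331 genes with the block, 1404 higher and 1927 lower; the cause was not tested. Among 262 named genes called at 48 h, the block changed 2 calls, EEF1A1 and ACTB (adjusted p = 0.422), both to not called, and it called the named genes BCL6, PAX5, TFAM, PCNA, H1-5 and CD3D lower; 44 lost their call with some single library left out, most of them with small differences or low counts. The mitochondrial share kept its direction in all settings. The depth of 28660713 to 51690031 counts, with a spread between libraries of 3.49%, lets small differences pass, and genes under 1 CPM were called in 284 of 4304 cases. Whether the libraries are separate cultures is not given.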
